A study of Homo sapiens with 9 samples.

Results

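Genes of the Wnt/beta-catenin pathway, mainly direct targets of the pathway and the feedback regulators that restrain it, were examined in human adrenal H295R cells. The set is a list of 10 gene names, CTNNB1, AXIN2, LEF1, TCF7, NKD1, LGR5, RNF43, ZNRF3, WNT4 and DKK1, drawn up with earlier results of these data known. Of these, 9 were measured, each by 1 probe set, among 18417 named genes in all, and TCF7 was not analysed here. NCI-H295R cells derive from a carcinoma of the adrenal cortex and are steroidogenic. All cells were kept in growth medium for 24 h and then for 48 h under 1 of 3 conditions. Metformin cells received 10 mM metformin in serum-free medium, starvation cells received serum-free medium alone, and normal growth cells stayed in growth medium. Each condition had 3 arrays, lettered A to C, which gave 9 arrays of total RNA. The growth medium contained serum with insulin, transferrin and selenium, and the starvation medium contained none of these, so that loss of serum and loss of the supplements cannot be told apart. Metformin was given without serum, and starvation is therefore its direct control. Nothing in the sources used here says that the metformin arrays came from separate cultures. Their p-values then measure only the spread between arrays, which may be technical.

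In the canonical Wnt pathway, beta-catenin is held at a low level by a destruction complex built on APC and the axins. Binding of a Wnt ligand to a Frizzled receptor and LRP co-receptor halts this destruction, and beta-catenin then enters the nucleus and activates genes with TCF/LEF factors. Many of those genes encode brakes on the pathway itself, so that their RNA is widely used as a readout of its activity. In the adrenal cortex the pathway is active in the outer zone and in progenitor cells, and H295R cells are known to carry an activating mutation of CTNNB1. In such cells much of the signal arises downstream of the ligands and receptors.

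Of the 9 genes, DKK1 was the one that passed the test, and it was lower with metformin than in starvation and in normal growth. DKK1 encodes a secreted protein that binds the LRP co-receptors and blocks Wnt ligands, and it is itself a known beta-catenin target. The 250 bases before its listed start site are shown because the result turns on this gene. The same stretch before the start site listed for LEF1, a target that did not pass the test, is given for comparison. Both are from RefSeq (GRCh38.p14), at chr10:52314031-52314280 on the plus strand for DKK1 and chr4:108166302-108166551 on the minus strand for LEF1. Capitals mark matches to the TCF/LEF core CTTTGA, read on both strands so that TCAAAG also counts, and to the TATA box TATAAA, likewise read on both strands.
DKK1: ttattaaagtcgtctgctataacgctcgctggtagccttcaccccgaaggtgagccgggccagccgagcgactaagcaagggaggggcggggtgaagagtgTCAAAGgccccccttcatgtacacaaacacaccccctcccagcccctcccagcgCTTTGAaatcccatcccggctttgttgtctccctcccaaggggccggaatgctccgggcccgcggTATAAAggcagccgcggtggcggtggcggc
LEF1: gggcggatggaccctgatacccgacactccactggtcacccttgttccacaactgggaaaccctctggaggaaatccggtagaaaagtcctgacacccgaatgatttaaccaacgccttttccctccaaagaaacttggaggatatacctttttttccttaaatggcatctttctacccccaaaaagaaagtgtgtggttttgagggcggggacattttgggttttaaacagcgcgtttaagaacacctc

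The DKK1 stretch held TCAAAG beginning 149 bases before the start site, CTTTGA beginning 95 bases before it and TATAAA beginning 30 bases before it. The listed LEF1 stretch held none of these, and any other start site of LEF1 was not examined. Windows of 300 bases, from 250 before a start site to 50 after it, were listed for 6 of the 10 genes, 8 windows in all, and 1 of the 8, that of DKK1, held the TCF/LEF core. Over all 35116 windows of this length, 12.9% held the core at least once, 1.29% held it 2 or more times, and 11.5% held the TATA box. A match of letters is a description and no site of binding, and the arrays did not measure binding.

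Expression is given as the deposited log2 value of each probe set, in which a step of 1 is a doubling. The array medians lay between 6.04 and 6.16, and arrays correlated at 0.990 to 0.995 within metformin, 0.994 to 0.997 within starvation and 0.996 to 0.997 within normal growth. All 9 genes stood above the median of every array. Values of different genes come from different probes and are not compared with each other. Of 11 measured markers of adrenocortical cells, 8 were above the median of every array, against 0 of 7 for immune cells, 1 of 8 for endothelium, 2 of 9 for epithelium and 3 of 10 for fibroblasts. RNA came from whole cultures, in which fewer cells of a type and less RNA per cell cannot be told apart.

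The question of the direct comparison was which of these genes responded to metformin in cells already deprived of serum. DKK1 measured 7.04, 7.07 and 6.77 on metformin arrays A, B and C, against 8.52, 8.01 and 8.29 on starvation arrays A, B and C and 7.90, 7.89 and 7.90 on normal growth arrays A, B and C. Every metformin array was below every array of the other conditions, and every starvation array was above every normal growth array. The mean was 6.96 ± 0.17 with metformin and 8.27 ± 0.25 in starvation (SD, n = 3 each). DKK1 thus fell by 1.31 on the log2 scale with metformin relative to starvation (SE 0.15, 95% interval -1.68 to -0.94), or 2.49-fold lower, and this change passed the test (limma, adjusted p = 0.0180). Among all named genes, 6.03% passed in this comparison, 2.89% passed as falls, and 0.228% passed with a fall of at least 2-fold. The call was lost without starvation array A, B or C (limma, adjusted p = 0.103, 0.0575 and 0.108) and without metformin array A (0.0700), and held without metformin array B or C (0.0457 and 0.0399), while the change stayed between -1.44 and -1.19. It was also lost with the methods' t-test, which the study names for its other measurements and not for the arrays (adjusted p = 0.0593), and with the replicate letter as a block (limma, adjusted p = 0.113).

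Relative to normal growth, DKK1 fell by 0.94 on the log2 scale with metformin (SE 0.09, 95% interval -1.16 to -0.72), or 1.92-fold lower, with means of 6.96 ± 0.17 and 7.90 ± 0.01 (SD, n = 3 each, limma adjusted p = 0.00637). In this comparison 12.5% of named genes passed, and 6.36% passed as falls. The call held without any single array, with limma adjusted p from 0.00885 to 0.0464, and was lost with the letter as a block (limma, adjusted p = 0.0607). The change of DKK1 in starvation relative to normal growth was 0.38 on the log2 scale (SE 0.13, 95% interval 0.07 to 0.69), with no overlap of the arrays, but it did not pass after adjustment (limma, adjusted p = 0.489). These comparisons share arrays with one another, so that a low or high array of 1 condition enters 2 of them.

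**Figure D1:**
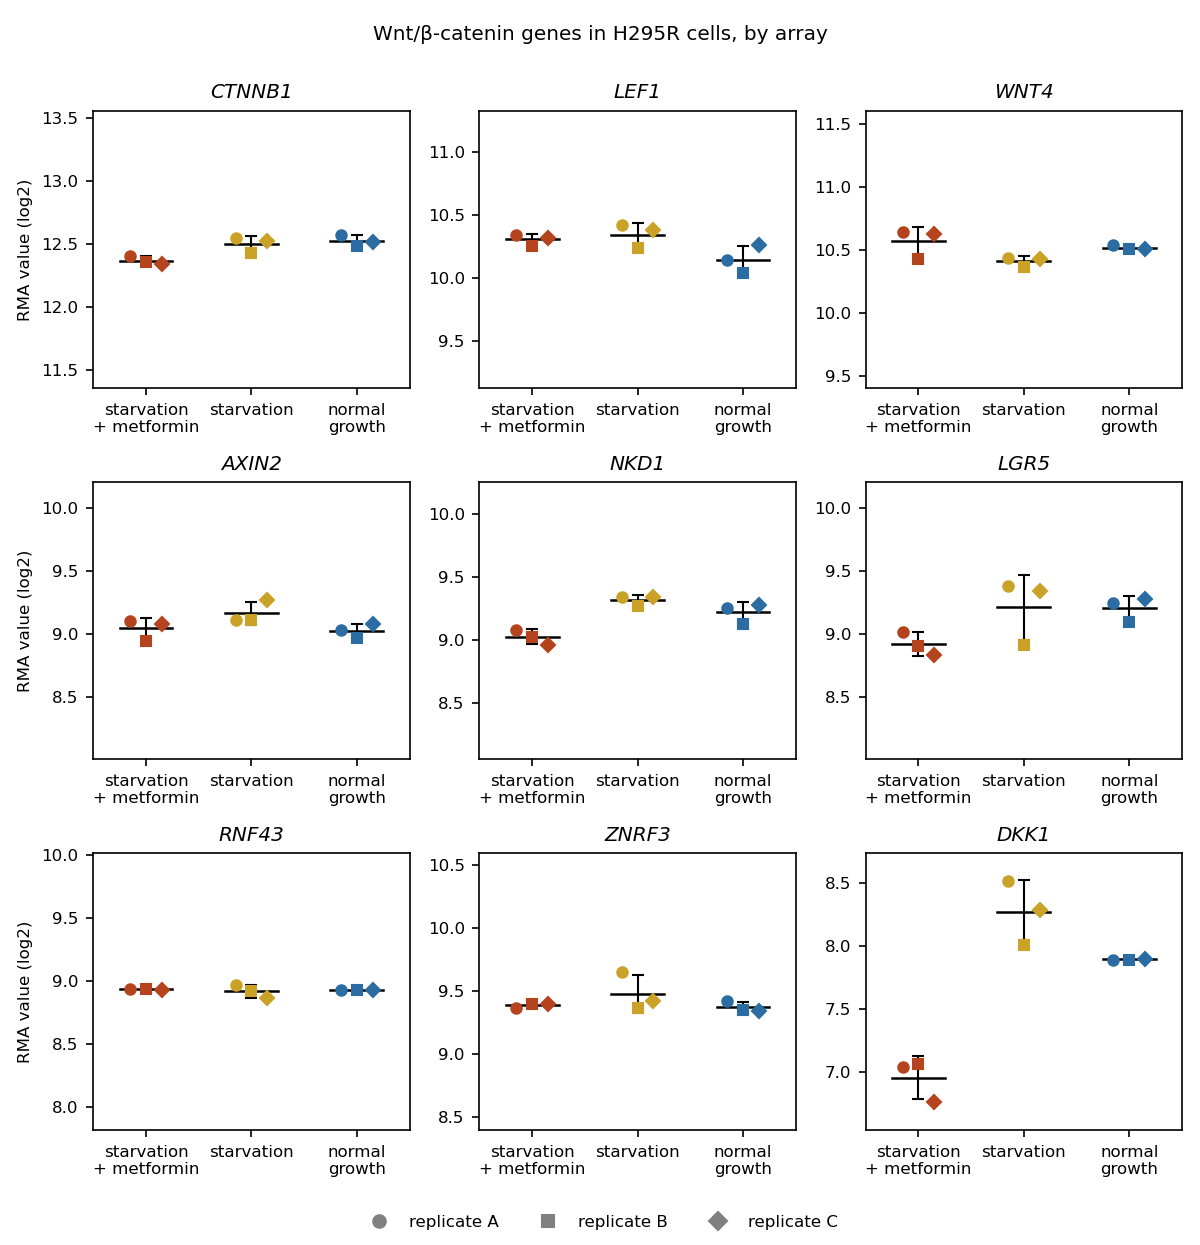
Deposited log2 expression (vertical axis) of the 9 measured Wnt/beta-catenin genes on each array, with metformin, starvation and normal growth from left to right; symbols are arrays, horizontal lines are means of 3 arrays and whiskers are SD. The metformin arrays of DKK1 lie between 6.77 and 7.07, below all starvation and normal growth arrays, while those of LEF1, LGR5, RNF43, ZNRF3 and WNT4 overlap the starvation arrays.

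NKD1 encodes an intracellular inhibitor that acts on Dishevelled and is induced by the pathway it restrains. It measured 9.08, 9.02 and 8.96 on metformin arrays A, B and C, against 9.34, 9.26 and 9.34 in starvation and 9.25, 9.13 and 9.28 in normal growth. All metformin arrays were below all arrays of the other conditions. The change with metformin was -0.29 relative to starvation (SE 0.06, 95% interval -0.44 to -0.15, limma adjusted p = 0.0549) and -0.20 relative to normal growth (95% interval -0.35 to -0.04, limma adjusted p = 0.131). NKD1 lay just outside the threshold in the first of these, and passed it under 5 alternative settings, as given in the closing section. It stayed outside under all the other settings, including each omission of a single array (limma, adjusted p up to 0.202). Over all settings the change lay between -0.32 and -0.26. Between starvation and normal growth its difference was 0.10 and the arrays overlapped (limma, adjusted p = 0.775).

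LGR5 encodes a receptor for R-spondins, which enhance Wnt signalling, and it is a beta-catenin target and a marker of stem cells in several epithelia. It measured 9.02, 8.90 and 8.83 on metformin arrays A, B and C, against 9.38, 8.91 and 9.34 in starvation and 9.24, 9.09 and 9.27 in normal growth. Starvation array B lay among the metformin arrays, so that those groups overlapped, whereas all metformin arrays were below all normal growth arrays. The change with metformin was -0.29 relative to normal growth (SE 0.08, 95% interval -0.47 to -0.10, limma adjusted p = 0.0806). It was also -0.29 relative to starvation, with a wider interval of -0.63 to 0.05 (limma, adjusted p = 0.321). The difference between starvation and normal growth was 0.01, and leaving out single arrays moved it between -0.08 and 0.16.

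RNF43 and ZNRF3 encode membrane ubiquitin ligases that remove Frizzled receptors from the cell surface, and R-spondins bound to LGR receptors neutralise them. RNF43 hardly varied, at 8.94, 8.94 and 8.93 on metformin arrays A, B and C, against 8.97, 8.92 and 8.87 in starvation and 8.93 on all 3 normal growth arrays. Its change with metformin was 0.02 relative to starvation (95% interval -0.11 to 0.15, limma adjusted p = 0.896) and 0.01 relative to normal growth (95% interval -0.10 to 0.12, limma adjusted p = 0.937), a range that leaves room for small changes in either direction. ZNRF3 measured 9.37, 9.40 and 9.40 on metformin arrays A, B and C, against 9.65, 9.36 and 9.42 in starvation and 9.42, 9.35 and 9.34 in normal growth. Starvation array A stood above the rest, and all 3 conditions overlapped. The change of ZNRF3 with metformin was -0.09 relative to starvation (95% interval -0.30 to 0.12, limma adjusted p = 0.639) and 0.02 relative to normal growth (95% interval -0.10 to 0.13, limma adjusted p = 0.893).

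AXIN2 encodes a scaffold of the destruction complex and is the most commonly used target gene of the pathway. It measured 9.10, 8.94 and 9.08 on metformin arrays A, B and C, against 9.11, 9.10 and 9.26 in starvation and 9.02, 8.97 and 9.08 in normal growth. All metformin arrays were below all starvation arrays, but metformin A and starvation B were separated by less than the spread within either condition. The change was -0.12 relative to starvation (SE 0.08, 95% interval -0.31 to 0.07, limma adjusted p = 0.460) and 0.02 relative to normal growth (95% interval -0.14 to 0.18, limma adjusted p = 0.912). In starvation AXIN2 was 0.14 above normal growth with no overlap of the arrays, which did not pass the test (limma, adjusted p = 0.684).

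CTNNB1 encodes beta-catenin itself, whose activity is set mainly by the stability of the protein, which these arrays did not measure. It measured 12.40, 12.36 and 12.34 on metformin arrays A, B and C, against 12.55, 12.43 and 12.52 in starvation and 12.57, 12.48 and 12.51 in normal growth. All metformin arrays were below all the others, by a small amount. The change was -0.13 relative to starvation (SE 0.06, 95% interval -0.28 to 0.01, limma adjusted p = 0.286) and -0.16 relative to normal growth (95% interval -0.28 to -0.03, limma adjusted p = 0.135). Starvation differed from normal growth by -0.02 (limma, adjusted p = 0.953).

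LEF1 encodes a nuclear partner of beta-catenin that is also a target gene. It measured 10.34, 10.25 and 10.32 on metformin arrays A, B and C, against 10.42, 10.23 and 10.38 in starvation and 10.14, 10.04 and 10.26 in normal growth. The metformin arrays lay within the range of the starvation arrays, and both conditions overlapped normal growth. The change with metformin was -0.04 relative to starvation (95% interval -0.21 to 0.13, limma adjusted p = 0.818) and 0.16 relative to normal growth (95% interval -0.02 to 0.34, limma adjusted p = 0.258). In starvation LEF1 differed from normal growth by 0.20 (SE 0.08, limma adjusted p = 0.612).

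WNT4 encodes a ligand of the adrenal cortex that is a beta-catenin target there. It measured 10.65, 10.43 and 10.63 on metformin arrays A, B and C, against 10.44, 10.37 and 10.43 in starvation and 10.54, 10.51 and 10.51 in normal growth. Metformin array B lay among the starvation arrays, and all starvation arrays were below all normal growth arrays. The change was 0.16 with metformin relative to starvation (95% interval -0.03 to 0.34, limma adjusted p = 0.327), 0.05 relative to normal growth (95% interval -0.12 to 0.23, limma adjusted p = 0.731) and -0.11 in starvation relative to normal growth (95% interval -0.21 to 0.00, limma adjusted p = 0.622).

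As counts, 1 of the 9 genes passed with metformin relative to starvation and 1 relative to normal growth, both DKK1 and both as falls, where 6.03% and 12.5% of all named genes passed. In starvation relative to normal growth 0 of 9 passed by limma, with 2 (DKK1 and LEF1) at an unadjusted p under 0.05, and the methods' t-test gave 0 after adjustment and 1 before it. In that comparison 2 genes (DKK1 and AXIN2) were above normal growth on every array and 1 (WNT4) was below. Of all named genes, 0.228% passed in starvation, 9.88% had an unadjusted p under 0.05, 6.86% were above normal growth on every array and 9.62% were below. With metformin 4 of the 9 genes were below starvation on every array (CTNNB1, AXIN2, NKD1 and DKK1) and 0 were above, where 15.2% of all named genes were below and 15.7% above. Relative to normal growth 4 of 9 were likewise below (CTNNB1, NKD1, LGR5 and DKK1) and 0 above, where 19% of all named genes were below and 16.8% above. The median change of the 9 genes was -0.12 relative to starvation and 0.01 relative to normal growth with metformin, against -0.03 and -0.02 over all named genes, and 0.10 in starvation, against -7.17e-04 over all named genes. Genes measured on the same arrays are not independent replicates, and no test was made over the set.

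**Figure D2:**
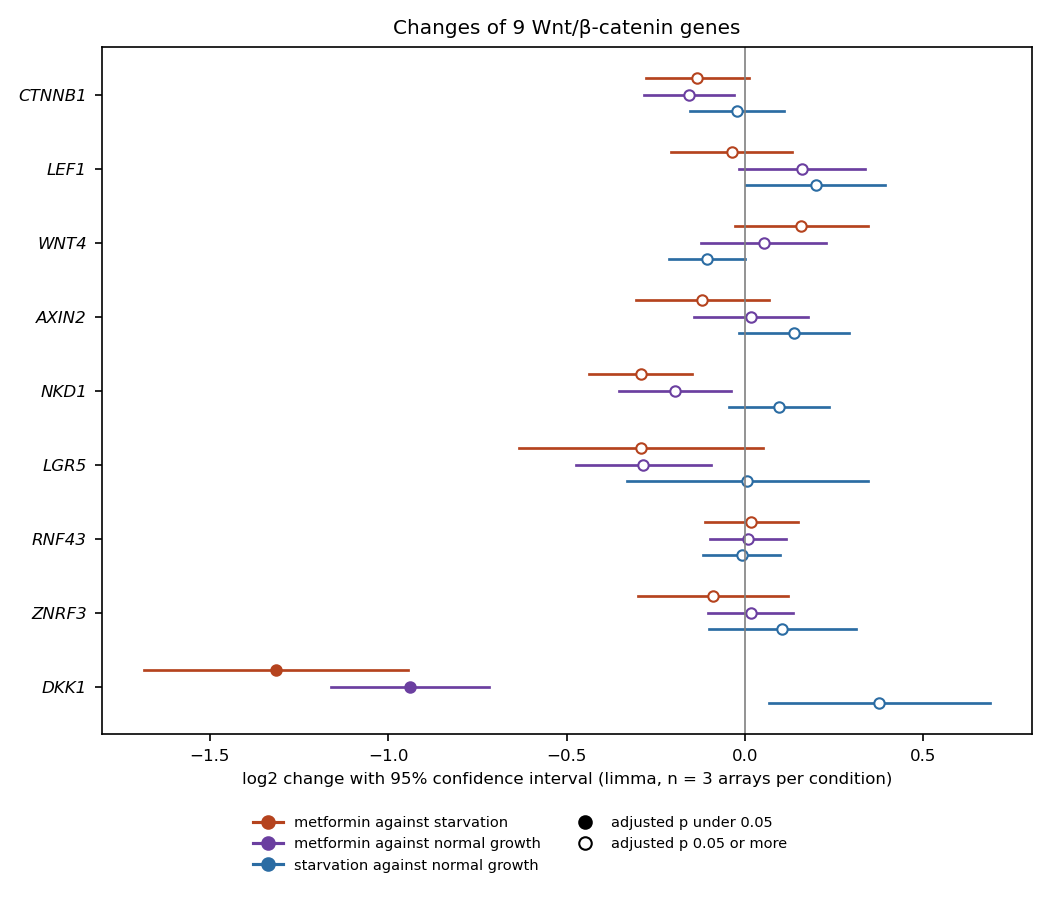
Change of each of the 9 genes on the log2 scale (horizontal axis) in the 3 comparisons, with lines for 95% intervals from limma and filled points for an adjusted p under 0.05. DKK1 stands apart at -1.31 relative to starvation and -0.94 relative to normal growth, and the point of every other gene lies between -0.29 and 0.20.

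Other secreted or membrane antagonists of Wnt ligands were measured in a list of 16 genes that includes DKK1. Relative to starvation 1 rose and 3 fell with metformin, and relative to normal growth 3 rose and 3 fell, where 6.03% and 12.5% of all named genes passed. In starvation 0 passed by limma, with 5 at an unadjusted p under 0.05, as had 9.88% of all named genes. The median change of the list was -0.04 with metformin relative to starvation, against -0.03 over all named genes. The falls were DKK1, DKK2 and APCDD1, and the rises were SFRP1, DKK3 and KREMEN1.

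DKK2, which like DKK1 binds the LRP co-receptors, measured 8.16, 8.19 and 7.93 on metformin arrays A, B and C, against 8.99, 8.72 and 8.94 in starvation and 8.59, 8.46 and 8.52 in normal growth. Its arrays kept the order seen in DKK1, with metformin lowest, normal growth between and starvation highest, and no overlap. DKK2 fell by 0.79 with metformin relative to starvation (SE 0.11, limma adjusted p = 0.0242) and by 0.43 relative to normal growth (limma, adjusted p = 0.0375), and its difference of 0.36 in starvation did not pass (limma, adjusted p = 0.292). APCDD1, a membrane inhibitor of Wnt signalling and a beta-catenin target, measured 11.08, 11.10 and 11.12 with metformin, against 11.54, 11.46 and 11.59 in starvation and 11.37, 11.29 and 11.30 in normal growth. It had the same order without overlap and fell by 0.43 with metformin relative to starvation (limma, adjusted p = 0.0233) and by 0.22 relative to normal growth (limma, adjusted p = 0.0482). APCDD1 and SFRP1 were chosen for naming after their values were seen.

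KREMEN1 encodes a receptor through which Dickkopf proteins can remove LRP co-receptors from the membrane. It measured 8.76, 8.95 and 8.72 on metformin arrays A, B and C, against 8.50 on all 3 starvation arrays, an identical value, and 8.24, 8.29 and 8.29 in normal growth. The arrays were ordered with metformin highest and normal growth lowest. KREMEN1 rose by 0.54 with metformin relative to normal growth (limma, adjusted p = 0.0145), while its difference of 0.31 from starvation did not pass (limma, adjusted p = 0.0917). DKK3, a divergent Dickkopf protein that does not act through LRP in the manner of DKK1, measured 8.85, 8.91 and 8.93 with metformin, against 8.74, 8.75 and 8.73 in starvation and 8.40, 8.43 and 8.25 in normal growth. It rose by 0.54 relative to normal growth (limma, adjusted p = 0.0103), and a second probe set of DKK3, which lay below the median of every array at a mean of 4.07 with metformin and 4.10 in normal growth, differed by -0.03 (limma, adjusted p = 0.891). SFRP1, a secreted decoy for Wnt ligands, rose by 0.41 with metformin relative to starvation (limma, adjusted p = 0.0481) and by 0.33 relative to normal growth (limma, adjusted p = 0.0447).

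**Figure D3:**
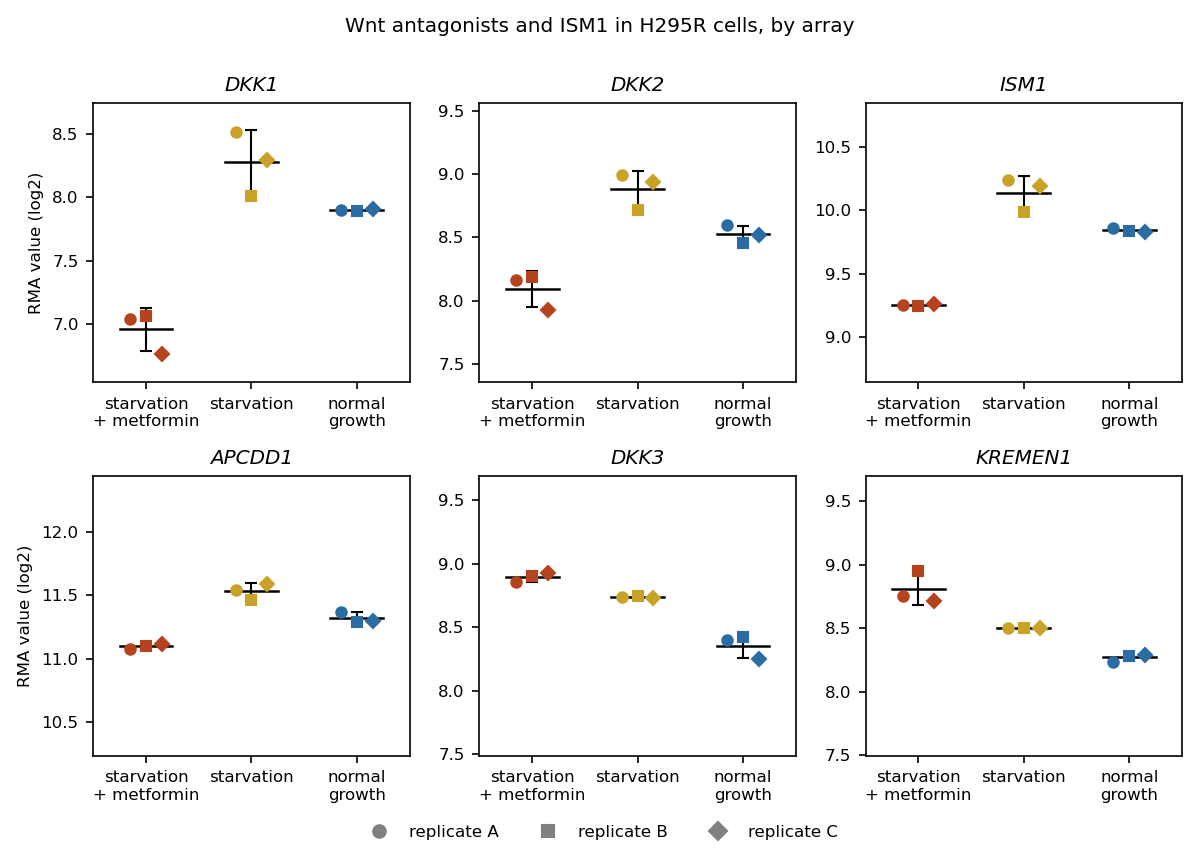
Deposited log2 expression (vertical axis, each panel spanning the same height) of DKK1, DKK2, ISM1, APCDD1, DKK3 and KREMEN1 on each array, with metformin, starvation and normal growth from left to right; symbols are arrays, horizontal lines are means of 3 arrays and whiskers are SD. DKK1, DKK2, ISM1 and APCDD1 are lowest with metformin and highest in starvation on every array, whereas DKK3 and KREMEN1 are highest with metformin and lowest in normal growth.

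Further genes described as beta-catenin targets were measured in a list of 21. With metformin 0 rose and 5 fell relative to starvation, and 0 rose and 6 fell relative to normal growth, where falls made up 2.89% and 6.36% of all named genes. In starvation relative to normal growth 0 passed by limma, with 6 at an unadjusted p under 0.05, as had 9.88% of all named genes. The median change of the list was -0.10 relative to starvation and -0.06 relative to normal growth, against -0.03 and -0.02 over all named genes. APCDD1 is in this list as well. BIRC5 was chosen for naming after its values were seen.

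ISM1, a secreted protein, measured 9.25, 9.25 and 9.26 on metformin arrays A, B and C, against 10.24, 9.98 and 10.19 in starvation and 9.86, 9.83 and 9.83 in normal growth. It took the order of DKK1, with metformin lowest, starvation highest and no overlap. ISM1 fell by 0.88 with metformin relative to starvation (SE 0.08, limma adjusted p = 0.0145) and by 0.59 relative to normal growth (limma, adjusted p = 0.00508).

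MYC, a transcription factor that drives growth and is regulated by many pathways besides this one, measured 8.45, 8.52 and 8.74 with metformin, against 9.41, 9.33 and 9.29 in starvation and 9.45, 9.37 and 9.44 in normal growth. Here the metformin arrays alone stood apart, and starvation overlapped normal growth. MYC fell by 0.77 relative to starvation (limma, adjusted p = 0.0183) and by 0.85 relative to normal growth (limma, adjusted p = 0.00707). FGF20, a growth factor, fell by 0.69 relative to starvation (limma, adjusted p = 0.0165) and by 0.66 relative to normal growth (limma, adjusted p = 0.0126). JAG1, a Notch ligand, fell by 0.77 relative to normal growth (limma, adjusted p = 0.0174) and did not pass relative to starvation. The means of JAG1 were 6.83 in normal growth, 6.44 in starvation and 6.06 with metformin, so that it was already lower in starvation alone. BIRC5, an inhibitor of cell death that is made in dividing cells, fell by 0.37 relative to starvation (limma, adjusted p = 0.0381) and by 0.56 relative to normal growth (limma, adjusted p = 0.00846). A second probe set of BIRC5, also below the median of every array, differed by -0.25 relative to starvation (limma, adjusted p = 0.366) and by -0.20 relative to normal growth (limma, adjusted p = 0.419). As with DKK1, the 5 falls relative to starvation lost their call without starvation array A, B or C or without metformin array A, where 0 of all probe sets passed by limma and 4948 to 5791 had an unadjusted p under 0.05.

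The counts in the other lists of the pathway stand against 6.03% of all named genes that passed with metformin relative to starvation and 12.5% relative to normal growth. An unadjusted limma p under 0.05 was held by 2676 of 33297 probe sets in starvation, 6629 with metformin relative to starvation and 7639 relative to normal growth. Many of these probe sets carry no gene symbol. When probe sets with 1 gene symbol were tested alone, the counts were 2147, 4883 and 5886 of 19460, which are larger shares. Of 19 Wnt ligands, which include WNT4, 0 passed with metformin relative to starvation by limma, with 1 at an unadjusted p under 0.05. Relative to normal growth 1 passed, WNT11, which signals mostly without beta-catenin and fell by 0.46 with metformin (limma, adjusted p = 0.0394). In starvation WNT11 differed from normal growth by -0.45, just outside the threshold (limma, adjusted p = 0.0538). Of 16 receptors and co-receptors, ROR1, a receptor for WNT5A, fell by 0.49 relative to starvation (limma, adjusted p = 0.0226) and by 0.34 relative to normal growth (limma, adjusted p = 0.0273). Of 9 genes of the R-spondin module, which include LGR5, RNF43 and ZNRF3, 0 passed in any comparison by limma, with 0 in starvation and 1 in each metformin comparison at an unadjusted p under 0.05.

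Within the cell, 0 of 11 genes of Dishevelled regulation and Wnt secretion, which include NKD1, passed in any comparison by limma. An unadjusted p under 0.05 was held by 1 in starvation and by 2 in each metformin comparison, 1 of these 2 being NKD1. Such a p was held by 2676 of 33297 probe sets in starvation and by 6629 and 7639 in the metformin comparisons. Among probe sets with 1 gene symbol, tested alone, it was held by 2147, 4883 and 5886 of 19460. Of 15 genes of the destruction complex and its turnover, which include AXIN2, 2 passed with metformin relative to normal growth and 0 relative to starvation by limma. An unadjusted p under 0.05 was held by 1 in starvation and by 6 with metformin relative to starvation, 4 higher and 2 lower. Relative to normal growth 5 had such a p. Relative to normal growth AMER1, which recruits this complex to the membrane, fell by 0.93 (limma, adjusted p = 0.0186). Its means were 8.50 in normal growth, 8.21 in starvation and 7.56 with metformin. TNKS2, a tankyrase that marks axins for degradation, rose by 0.39 relative to normal growth (limma, adjusted p = 0.0472), with means of 9.42, 9.51 and 9.81 in the same order. Of 17 TCF/LEF factors and nuclear partners, which include LEF1, the co-repressor TLE3 rose by 0.70 relative to starvation (limma, adjusted p = 0.0246) and by 0.38 relative to normal growth (limma, adjusted p = 0.0422). Of 8 catenins and cadherins, which include CTNNB1, the cadherins CDH2 and CDH12, membrane proteins that bind catenins at cell contacts, fell in both metformin comparisons, and the other 6 did not pass. CDH2 fell by 0.41 relative to starvation (limma, adjusted p = 0.0274) and by 0.55 relative to normal growth (limma, adjusted p = 0.00651), and CDH12 fell by 0.65 (limma, adjusted p = 0.0352) and by 0.61 (limma, adjusted p = 0.0141).

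**Figure D4:**
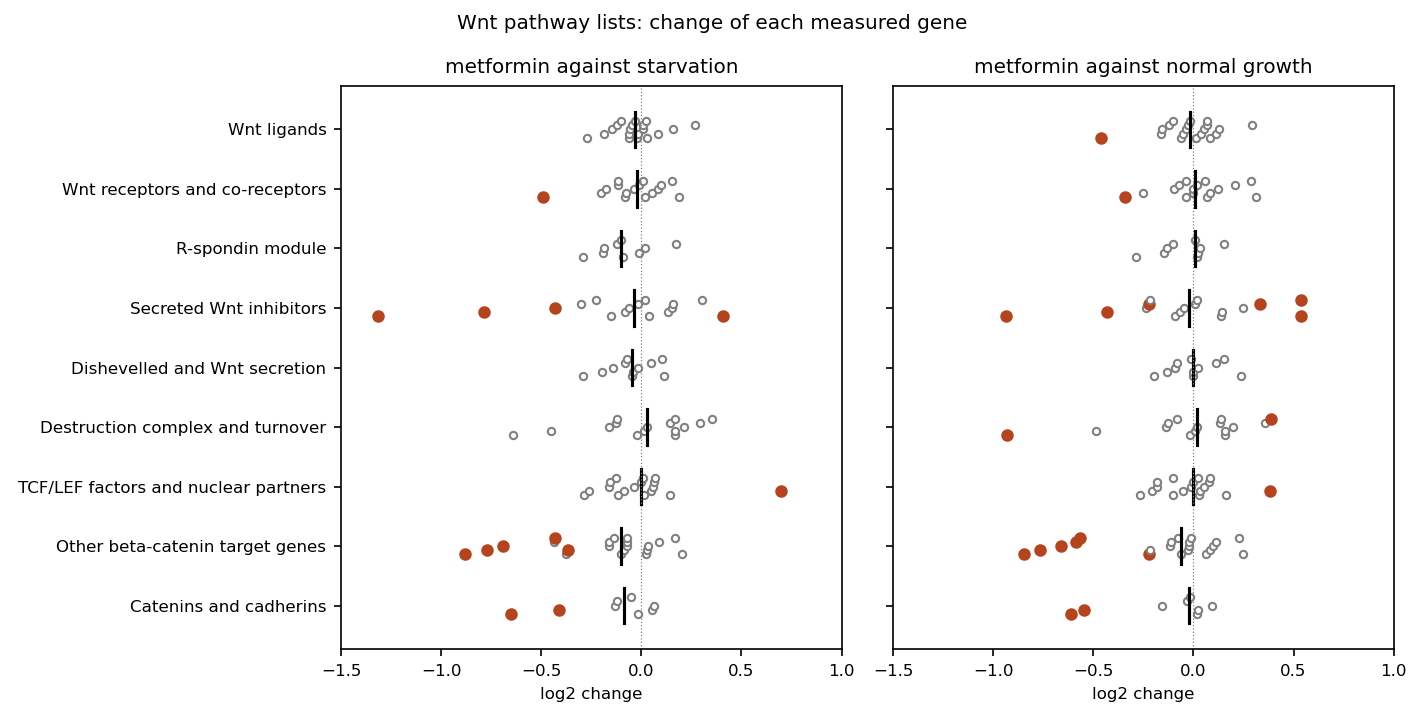
Change on the log2 scale (horizontal axis) with metformin relative to starvation (left) and to normal growth (right) for each measured gene of the Wnt pathway lists (rows), with filled points for an adjusted p under 0.05 and a bar at the median of each list. All medians lie near 0, and DKK1 is the leftmost point in the row of secreted Wnt inhibitors, at -1.31 on the left and -0.94 on the right.

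Markers of cell types were read beside these results. Of 11 adrenocortical markers, 1 rose and 3 fell with metformin relative to starvation, where 6.03% of all named genes passed. Relative to normal growth 1 rose and 5 fell, where 12.5% of all named genes passed. In starvation relative to normal growth, where the DKK1 arrays were higher, 1 marker fell (HSD3B2, by 1.99, limma adjusted p = 0.00648), 7 were below normal growth on every array and the median change was -0.18. Of all named genes, 0.228% passed in that comparison, 9.62% were below normal growth on every array and the median change was -7.17e-04. NR5A1, the factor that sets steroidogenic identity, fell by 0.46 relative to starvation (limma, adjusted p = 0.0196), with 10.27, 10.38 and 10.32 on metformin arrays, against 10.77, 10.81 and 10.77 in starvation. HSD3B2, which makes progesterone and related steroids, fell by 1.33 relative to starvation (limma, adjusted p = 0.0212), and SULT2A1, which sulfates adrenal androgens, fell by 0.82 (limma, adjusted p = 0.0145). MC2R, the ACTH receptor, rose by 1.02 (limma, adjusted p = 0.0389), from a starvation mean of 5.32 that lay below the array medians. STAR did not pass but was above starvation on every metformin array, with means of 11.70 and 11.26. Of the 11 markers, 2 were above starvation on every metformin array and 6 were below, where 15.7% and 15.2% of all named genes were. The mean log2 level over the adrenocortical markers ranged over 8.92 to 9.16 with metformin, 9.16 to 9.21 in starvation and 9.45 to 9.56 in normal growth. Fibroblast, endothelial and immune markers had no gene past the test in any comparison by limma. In the 3 comparisons, 1 to 2 of 10 fibroblast, 0 of 8 endothelial and 0 of 7 immune markers had an unadjusted p under 0.05. So did 2676 of 33297 probe sets in starvation, 6629 with metformin relative to starvation and 7639 relative to normal growth. Among probe sets with 1 gene symbol, tested alone, 2147, 4883 and 5886 of 19460 did. The mean levels over these lists lay between 4.38 and 5.11 on all arrays, below the array medians, although 3 of the 10 fibroblast markers were above every median. FAP, 1 of these 3, averaged 8.19 in normal growth, 7.28 in starvation and 7.83 with metformin. In starvation it was below normal growth on every array, and 0 of the 10 were above. Of 9 epithelial markers 1 passed, EPCAM, which was 0.57 higher with metformin than in normal growth (limma, adjusted p = 0.0342). EPCAM averaged 7.60 in normal growth, 7.93 in starvation and 8.17 with metformin, and did not pass relative to starvation. Of 7 reference genes 1 passed, B2M, which was 0.30 higher with metformin than in normal growth (limma, adjusted p = 0.0470), where 12.5% of all named genes passed. B2M averaged 11.05 in normal growth, 11.16 in starvation and 11.35 with metformin. The part of the adrenocortical markers' change in the change of DKK1 was not tested.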

How the data were processed

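Total RNA of H295R cells was hybridized to GeneChip Human Gene 1.0 ST arrays, a single-colour design with several probes per transcript. The values deposited by the authors are on the log2 scale, for 33297 probe sets on each of 9 arrays. They were made with RMA, which subtracts background, quantile normalizes probe intensities across arrays and combines the probes of a set by median polish, a step that can return 1 identical value on several arrays, as for KREMEN1. Besides RMA, the processing notes of the submitters list Affymetrix Expression Console and limma, and the methods of the study list Affymetrix Power Tools. No version is given in the sources used here, and the values were not normalized further.

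By the platform annotation, 19460 probe sets carry 1 gene symbol, 1754 carry several and 12083 carry none. Tests covered all of them, and names are given for probe sets with 1 symbol (18417 genes, the brightest probe set of each). RefSeq gave the same symbol for 19429 of the 19460. Conditions came from the sample labels, and each comparison used its own 6 arrays in lmFit and eBayes of limma 3.58.1 (R 4.3.3), two-sided and without a block. Benjamini-Hochberg adjustment ran over every probe set, and a gene passed at an adjusted p under 0.05. Precision is limited by 3 arrays per condition.

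The 10 genes and the gene lists were chosen with earlier results of these data known. All measured genes of the set are given on every array, and of each list up to 4 genes that passed, by size, in the comparison with most calls. The 3 genes with the widest range of condition means were set beside the genes most correlated with them, among genes with an SD of at least 0.2. Alternative settings were a single fit of all 9 arrays, a shift of each array to 1 common median, a second round of quantile normalization, removal of probe sets whose mean lay under the 40th percentile, a test of single-symbol probe sets alone, averaging over the probe sets of each gene, eBayes with trend and robust options, the methods' t-test (named in the study's general statistics and not for its arrays), a block for the replicate letter, and omission of each array in turn.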

Additional observations from a re-analysis of the deposited data

How the results depend on the processing

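DKK1 kept its direction in all 3 comparisons under every alternative run. Probe sets past the threshold numbered 50 in starvation relative to normal growth, but 28 with arrays shifted to a common median (4 higher and 24 lower, in place of 14 and 36), 142 with dim probe sets left out, 155 with single-symbol probe sets alone and 126 with trend and robust options. With metformin relative to starvation they numbered 1425, but 3368 with all 9 arrays in 1 fit, 611 with arrays shifted, 2604 with dim probe sets left out, 2469 with trend and robust options and 650 with the methods' t-test, and relative to normal growth 3021, but 1446 with that t-test. Leaving out single arrays gave 0 to 22, 0 to 1189 and 439 to 3734. Of the 9 genes, 1 passed with metformin relative to starvation, but 2 with all 9 arrays, quantile normalization again, dim probe sets left out, single-symbol probe sets alone or trend and robust options, the second being NKD1 (limma adjusted p from 0.0201 to 0.0281), and 0 by the t-test, with a range of 0 to 1 without single arrays. Relative to normal growth 2 passed in place of 1 with quantile normalization again, dim probe sets left out or single-symbol probe sets alone, the second being LGR5 (limma adjusted p from 0.0374 to 0.0415), and 2 with trend and robust options, the second being CTNNB1 (limma adjusted p = 0.0342). Whether the letters A to C mark shared experiments is not stated in the sources used here. Deviations of same-letter arrays correlated at 0.02 to 0.13, -0.25 to 0.29 and -0.16 to 0.01 in the 3 comparisons. Those of different-letter arrays correlated at -0.11 to 0.04, -0.38 to 0.44 and -0.11 to 0.18. With 3 arrays per condition these values cannot decide whether the arrays were paired. With the letter as a replicate block, 0 probe sets and 0 of the 9 genes passed by limma in each comparison, with 2758, 5698 and 6899 probe sets at an unadjusted p under 0.05.

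Changes near 0 turned sign. In starvation these were RNF43 with quantile normalization again (0.0125), and, without single arrays, CTNNB1 (-0.0476 to 0.0139), LGR5 (-0.0785 to 0.157) and RNF43 (-0.0323 to 0.0167). With metformin relative to starvation RNF43 was -0.00875 with arrays shifted, -0.0063 with quantile normalization again and -0.00817 to 0.0408 without single arrays. Relative to normal growth AXIN2 was -0.00595, RNF43 -0.0151 and ZNRF3 -0.00811 with arrays shifted, and AXIN2 -0.0131 to 0.0671 without single arrays. The causes were not tested. Of 135 values of the 9 genes in each comparison, 128, 121 and 124 kept direction and side of the threshold. Most of these genes did not pass in the main fit, and staying outside the threshold counts here as kept. Of the values of other named genes, 99 of 105, 151 of 255 and 249 of 375 were kept, while 5, 102 and 126 lost their call.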

Other observations

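The named genes whose values most resembled those of DKK1 over the 9 arrays were OXCT1, RBM3 and ERV3-1, each with a Pearson r of 0.989 among 3403 genes with an SD of at least 0.2. RBM3, an RNA-binding protein induced by cold, averaged 7.78 with metformin, 8.65 in starvation and 8.45 in normal growth, and OXCT1, an enzyme that uses ketone bodies, averaged 9.05, 9.67 and 9.42 in the same order. For NKD1 they were CTTNBP2 (0.980), PDCL3 (0.964) and ROR1 (0.962), and for LGR5 they were FAIM (0.986), GIN1 (0.972) and ZNF860 (0.943). The arrays share conditions, so that any gene with a similar order of the 3 conditions correlates, and these values are a description.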
